A study of Rattus norvegicus with 8 samples.

Results

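Siglecs and related inhibitory receptors were followed in peritoneal macrophages of rats that had received mesotheliomagenic, needle-like carbon nanotubes (CNT-7) or non-mesotheliomagenic, tangled ones (CNT-T). The genes were chosen by name, with earlier results of these data known. In all, 9 were listed, namely Siglec1, Siglec5, Siglec10, Cd33, Pilra, Lilrb4, Sirpa, Cd300a and Ptpn6. Of these, 8 were matched by symbol among the 23487 genes of the count table, and Pilra was not analysed here. After the filter on low counts, 7 of the 8 were among the 12124 genes tested. Siglec10 was below the filter.

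Female Wistar rats aged 8 weeks received 1 particle into the peritoneal cavity, 4 of them CNT-7 (MWCNT-XNRI-7) and 4 CNT-T. On day 15 the macrophages of each rat were sorted by their staining for CD11b/c and His48 and sequenced as 1 bulk library per rat. The labels number the CNT-7 rats 3, 5, 10 and 11 and the CNT-T rats 1, 2, 12 and 13. Untreated rats were not analysed here, so that each difference is one between CNT-7 and CNT-T. Total counts lay between 27195157 and 33732981 per rat. Levels are given as CPM, counts scaled to a common library size with TMM factors. Fold changes are given for CNT-7 relative to CNT-T. Genes were compared with edgeR's quasi-likelihood test at a Benjamini-Hochberg adjusted p-value under 0.10, and 27.9% of all genes tested passed. In sorted bulk samples, fewer cells of a type and less RNA per cell cannot be told apart.

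Siglecs are lectins of the immunoglobulin superfamily that bind sialic acid on glycoproteins and glycolipids of the same or neighbouring cells. Many of them, like the receptors SIRPα, LILRB4 and CD300a, carry short tyrosine motifs in their cytoplasmic tail, which recruit the phosphatases SHP-1 and SHP-2 once Src family kinases have phosphorylated them. SHP-1, encoded by Ptpn6, thereby dampens signals from activating receptors, which depend on adaptors such as DAP12. On macrophages these receptors set thresholds for phagocytosis and cytokine release.

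Among the inhibitory receptors and Siglecs, Sirpa rose after CNT-7 and Cd33 fell. The groups of rats did not overlap for either gene, as was found for 24.9% of all genes tested. Sirpa was 1.37-fold higher and Cd33 1.55-fold lower after CNT-7. Siglec5, Lilrb4 and Ptpn6 had higher means after CNT-7 without passing the threshold, and for Cd300a and Siglec1 the means of both groups were close. In all, 2 of 7 tested genes passed, beside 27.9% of all genes tested. Their median log2 fold change was 0.19, and that of all genes was 0.0083. With DESeq2, in which 26.1% of genes passed, 4 of 8 genes did, Siglec5 and Lilrb4 being added and Siglec10 being tested as well.

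**Figure D1:**
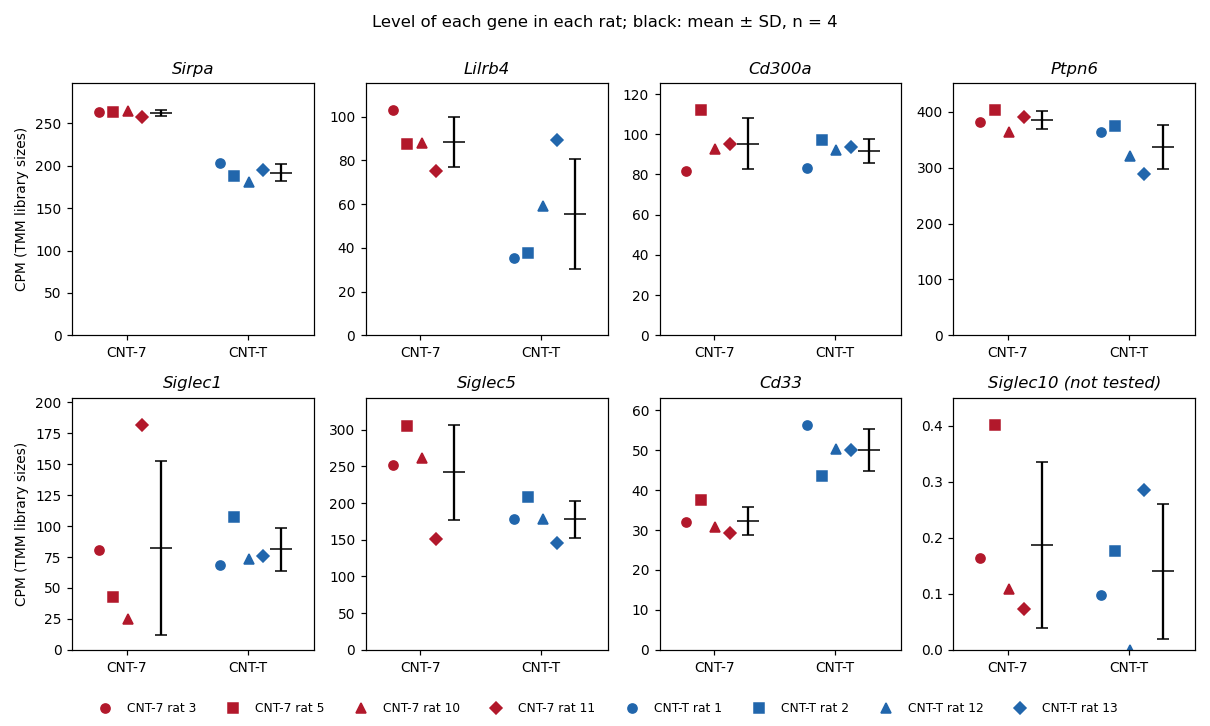
Level of the 8 genes in each rat, in CPM on linear axes from 0, with CNT-7 rats in red, CNT-T rats in blue and the mean ± SD over 4 rats in black. Sirpa was at 257 CPM or more in every CNT-7 rat and at 203 CPM or less in every CNT-T rat, Cd33 was lower in every CNT-7 rat, and Siglec1 was spread from 24.9 to 182 CPM among the CNT-7 rats.

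Sirpa (ENSRNOG00000004763) encodes SIRPα, the receptor that inhibits phagocytosis when it binds CD47 on other cells. Its level was 263, 264, 265 and 257 CPM in CNT-7 rats 3, 5, 10 and 11. In CNT-T rats 1, 2, 12 and 13 it was 203, 188, 181 and 195 CPM. Every CNT-7 rat was therefore above every CNT-T rat, a separation found for 24.9% of all genes tested. The means were 262 ± 3.68 CPM in the CNT-7 group and 192 ± 9.64 CPM in the CNT-T group (SD, n = 4 each). The log2 fold change was 0.45 with a standard error of 0.063 (95% confidence interval 0.31 to 0.59), and edgeR's adjusted p was 0.0015. Leaving out each rat in turn kept it between 0.42 and 0.48. Sirpa was also the most even of these genes after CNT-7. Its coefficient of variation over the 4 CNT-7 rats was 1.40%, and only 0.441% of the 11105 tested genes with at least 1 CPM on average had a lower SD of log2 CPM in that group.

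Cd47, the ligand of SIRPα, also rose, by less. It had 236 ± 10.6 CPM in the CNT-7 group and 201 ± 5.48 CPM in the CNT-T group (SD, n = 4 each), or 0.23 on the log2 scale (edgeR, adjusted p = 0.030). Receptor and ligand were thus both higher in the macrophages of every CNT-7 rat.

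Lilrb4 (ENSRNOG00000027811) encodes an inhibitory immunoglobulin-like receptor of myeloid cells, also known as gp49B. The CNT-7 rats 3, 5, 10 and 11 had 103, 87.7, 88.0 and 75.0 CPM. The CNT-T rats 1, 2, 12 and 13 had 35.6, 37.6, 59.3 and 89.3 CPM. Both groups overlapped because CNT-T rat 13 lay within the range of the CNT-7 rats. The log2 fold change of 0.67 (standard error 0.27, 95% confidence interval 0.08 to 1.27) was the highest of the 7 tested genes, but it missed the threshold (edgeR, adjusted p = 0.11). Without CNT-T rat 13 the log2 fold change was 1.0 and edgeR's adjusted p was 0.0104, and over the 8 fits without a rat the adjusted p lay between 0.0104 and 0.233. It also passed with DESeq2 (adjusted p = 0.0394). In the RefSeq gene order of the assembly GRCr8, Lilrb4 is followed by Lilrb3 and Lilra5, and reads of similar genes of this cluster could have been divided between them.

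Cd300a (ENSRNOG00000057058) encodes a receptor for phosphatidylserine and phosphatidylethanolamine on dying cells. It was measured at 81.5, 112, 92.8 and 95.1 CPM in CNT-7 rats 3, 5, 10 and 11. In CNT-T rats 1, 2, 12 and 13 it had 83.3, 97.3, 92.1 and 93.8 CPM, and the ranges overlapped almost fully. The log2 fold change was 0.06 with a 95% confidence interval from -0.16 to 0.28 (edgeR, adjusted p = 0.73), or from 0.892-fold to 1.21-fold. Values of related family members were not all as close. Cd300lf, an inhibitory member, had 102 ± 19.4 CPM in the CNT-7 group and 49.8 ± 3.70 CPM in the CNT-T group (SD, n = 4 each, log2 fold change 1.04, edgeR, adjusted p = 0.00092). Cd300le, listed among the activating members, had a log2 fold change of 1.04 as well (edgeR, adjusted p = 0.0042). Cd300lb, the RefSeq neighbour of Cd300a, had one of 0.01. These 3 genes were chosen after their values were seen, and the difference between them and Cd300a was not tested.

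Ptpn6 (ENSRNOG00000014294) encodes the phosphatase SHP-1, on which most of these receptors converge. Its level in CNT-7 rats 3, 5, 10 and 11 was 382, 403, 364 and 390 CPM. CNT-T rats 1, 2, 12 and 13 had 364, 374, 321 and 288 CPM, so that rats 1 and 2 reached the range of the CNT-7 rats. The log2 fold change of 0.19 (standard error 0.093, 95% confidence interval -0.02 to 0.40) did not pass (edgeR, adjusted p = 0.18).

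Siglec1 (ENSRNOG00000021243) encodes sialoadhesin, also called CD169, an adhesion receptor of macrophages without an inhibitory motif, whose gene is known to be induced by interferons. It had 80.4, 42.4, 24.9 and 182 CPM in CNT-7 rats 3, 5, 10 and 11. The CNT-T rats 1, 2, 12 and 13 were at 68.9, 107, 73.2 and 76.1 CPM. The CNT-7 rats thus differed 7.33-fold among themselves, on both sides of the CNT-T rats, which differed 1.55-fold. Both means were nearly equal, with 82.5 ± 70.4 CPM in the CNT-7 group and 81.2 ± 17.2 CPM in the CNT-T group (SD, n = 4 each). The log2 fold change was 0.02 with a 95% confidence interval from -1.10 to 1.15 (edgeR, adjusted p = 0.98), an interval from 0.465-fold to 2.22-fold. Without CNT-7 rat 11 it was -0.72 (edgeR, adjusted p = 0.173), and it was also below 0 without CNT-T rats 1, 12 or 13. The SD of log2 CPM of Siglec1 in the CNT-7 group was 1.24, above that of 99.1% of the 11105 genes, for which the median was 0.15.

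**Figure D2:**
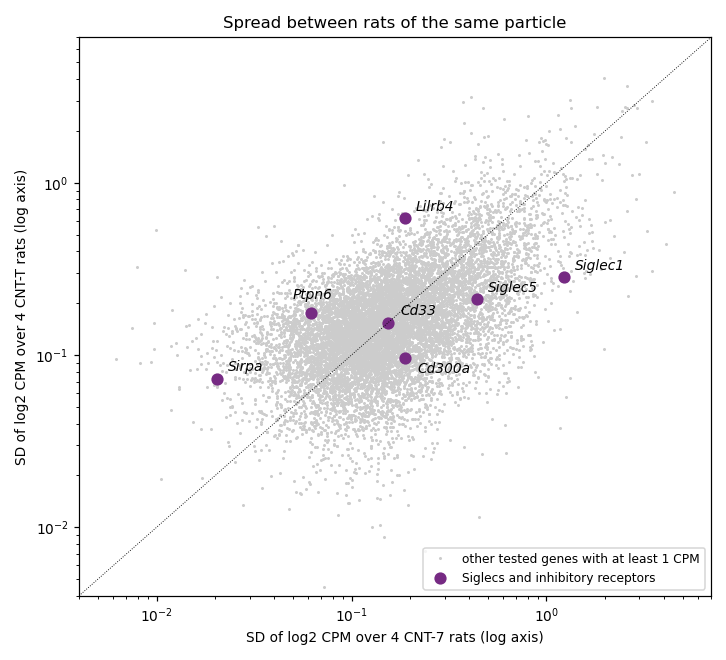
SD of log2 CPM over the 4 CNT-7 rats (horizontal, log axis) and over the 4 CNT-T rats (vertical, log axis) for the 7 tested genes, in purple, and for the tested genes with at least 1 CPM on average, in grey; the dotted line marks equal spread. Siglec1 lies far to the right (1.24 in CNT-7, 0.28 in CNT-T), Lilrb4 above the line (0.19 and 0.62) and Sirpa far to the left (0.02 and 0.07).

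Siglec5 (ENSRNOG00000021474), whose mouse counterpart Siglec-F is used as a marker of eosinophils and alveolar macrophages, was at 252, 305 and 262 CPM in CNT-7 rats 3, 5 and 10 and at 151 CPM in CNT-7 rat 11. CNT-T rats 1, 2, 12 and 13 had 179, 208, 178 and 146 CPM. Of the CNT-7 rats, only rat 11 was not above the CNT-T rats. The log2 fold change was 0.45 (standard error 0.19, 95% confidence interval 0.01 to 0.88) and did not pass (edgeR, adjusted p = 0.14). Without CNT-7 rat 11 it was 0.62 with edgeR's adjusted p at 0.00775, and over all fits without a rat the adjusted p ranged up to 0.33. DESeq2 gave an adjusted p of 0.0881. Eosinophil markers were measured beside it. Epx and Prg3 had no count in any rat, and the 5 markers of the list, all found, summed to 0.181 to 9.33 CPM in CNT-7 rats and 0.107 to 0.359 CPM in CNT-T rats. The highest sum, mostly from Ccr3 at 8.73 CPM, was in CNT-7 rat 3, and the part of these markers in the level of Siglec5 was not tested.

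Cd33 (ENSRNOG00000037331) encodes the Siglec CD33 of myeloid cells. Its level was 31.9, 37.4, 30.8 and 29.2 CPM in CNT-7 rats 3, 5, 10 and 11. In CNT-T rats 1, 2, 12 and 13 it was 56.4, 43.5, 50.4 and 50.1 CPM, with every CNT-T rat above every CNT-7 rat. Of the 8 genes, it was the only one with a lower mean in the CNT-7 group. The means were 32.3 ± 3.57 CPM and 50.1 ± 5.28 CPM (SD, n = 4 each), with a log2 fold change of -0.63 (standard error 0.10, 95% confidence interval -0.86 to -0.40; edgeR, adjusted p = 0.0030). Of all genes tested, 7.80% had a lower log2 fold change. Leaving out each rat in turn kept the value between -0.71 and -0.57. In the gene order of RefSeq, Cd33 is on the same chromosome as Siglec5 and Siglec10, next to Siglecl1.

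Siglec10 (ENSRNOG00000037339), known in mice as Siglec-G and best described on B cells, was barely detected. It had 5, 12, 3 and 2 counts in CNT-7 rats 3, 5, 10 and 11 and 3, 6, 0 and 8 counts in CNT-T rats 1, 2, 12 and 13. The limit of 3 counts corresponds to between 0.0886 and 0.109 CPM in these rats, and 4 rats were at or below it while both groups overlapped. Without the filter on low counts, the log2 fold change was 0.42 with a 95% confidence interval from -1.43 to 2.26 (edgeR, adjusted p = 0.786). DESeq2, which also tested the gene, did not call it (adjusted p = 0.842).

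**Figure D3:**
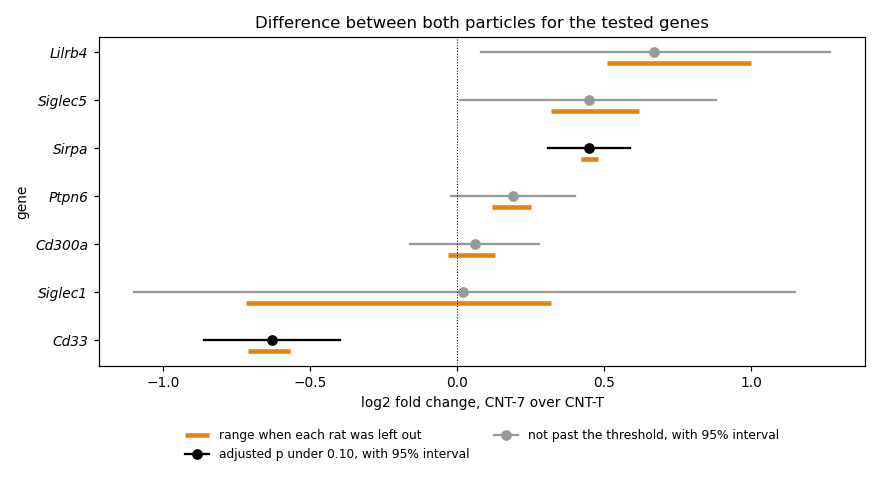
Log2 fold change (CNT-7 relative to CNT-T) on the horizontal axis for the 7 tested genes, with the 95% confidence interval as a thin line and the range obtained when each rat was left out as an orange bar. Sirpa at 0.45 and Cd33 at -0.63 passed the threshold (black), whereas the interval of Siglec1 runs from -1.10 to 1.15.

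Of 9 other Siglecs on a list of related genes, 5 were matched and 1 was tested, Siglec15, Siglech, Siglecl1 and Mag being below the filter. The tested gene was Cd22, a Siglec best known from B cells, with 125, 104, 72.6 and 116 CPM in CNT-7 rats 3, 5, 10 and 11 and 135, 138, 147 and 128 CPM in CNT-T rats 1, 2, 12 and 13. Like Cd33 it was lower in every CNT-7 rat (log2 fold change -0.39, edgeR, adjusted p = 0.093). This call was lost without CNT-7 rat 5 or any 1 of the CNT-T rats, with edgeR's adjusted p up to 0.198, and without CNT-7 rat 10 the log2 fold change was -0.25. Of the B cell markers, Ms4a1 was at most 0.536 CPM and Pax5 at most 0.134 CPM in any rat, and their part in the level of Cd22 was not tested.

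The members were next compared rat by rat, as the deviation of log2 CPM from the mean of the own group, which removes the difference between the particles. The 7 genes did not vary as a unit. In CNT-7 rat 11, Siglec1 deviated by 1.54 and Siglec5 by -0.64, and in CNT-7 rat 10 Siglec1 deviated by -1.33. In CNT-T rat 13, Lilrb4 deviated by 0.79 and Ptpn6 by -0.22. Across the 8 rats, Pearson's r of the deviations of Lilrb4 and Ptpn6 was -0.912 (Spearman's rho -0.857), and r was -0.759 over the 6 rats left without the 2 farthest from the median of Lilrb4. Over all 8 rats this was the r farthest from 0 of 21 pairs. With 2 rats left out of each pair it was not, as Siglec1 and Cd33 then had r = -0.881 and Siglec5 and Cd300a r = 0.788 over 6 rats. The values are a description of rats that share their groups. Siglec1 and Siglec5 had r = -0.676 (rho = -0.452), but r was -0.119 over the 6 rats without CNT-7 rats 10 and 11, so that the relation rested on these 2 rats. Sirpa and Cd33, the genes that passed, had r = 0.507 (rho = 0.381).

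**Figure D4:**
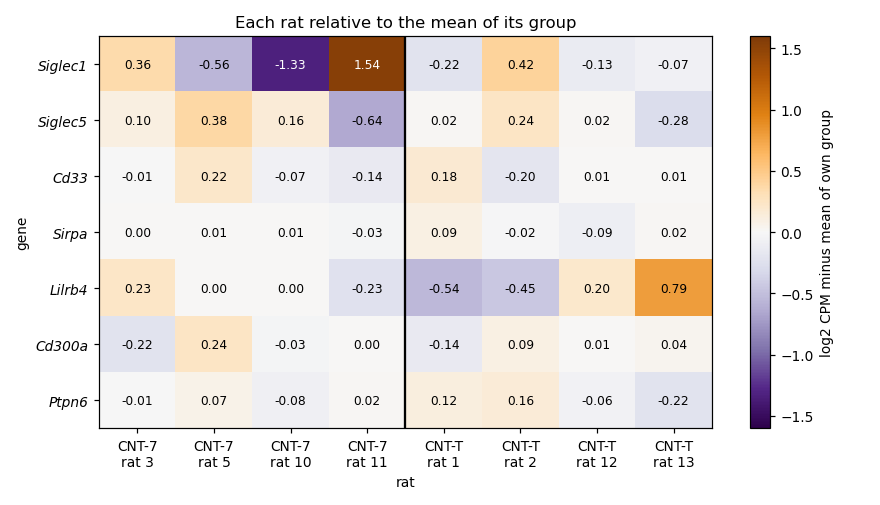
Deviation of log2 CPM of each rat from the mean of its own group for the 7 tested genes, with brown for higher, purple for lower and the value in each cell. The largest deviations are those of Siglec1 in CNT-7 rats 10 and 11 (-1.33 and 1.54), whereas no deviation of Sirpa exceeds 0.09 in size.

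The same measure over the 11105 genes with at least 1 CPM gave the genes whose pattern was most like that of each member. For Siglec1 these were Bri3 (r = 0.994, rho = 0.905), Mybl2 (r = 0.993, rho = 0.952) and Trpv4 (r = 0.992, rho = 1), over 8 rats. Without CNT-7 rats 10 and 11, r was 0.965, 0.974 and 0.947 over 6 rats. Mybl2, a transcription factor of the cell cycle, had 20.2, 13.5, 9.17 and 29.5 CPM in CNT-7 rats 3, 5, 10 and 11. These rats followed the same order for Siglec1, with rat 11 highest and rat 10 lowest. For Siglec5 the most alike genes were Uqcrq, Lsp1 and Usp3, with r between 0.973 and 0.989. For Cd33 they were Vezf1, Ubash3a and Abcb4 (0.957 to 0.972), and for Sirpa Smap1, Efnb1 and Msrb3 (0.974 to 0.982). Lilrb4 was most like Spcs3, Ebag9 and Plpp6 (0.978 to 0.979), Cd300a most like Lats2, Serinc5 and Prkce (0.954 to 0.965), and Ptpn6 most like Bckdk, Cnpy3 and Tagap (0.976 to 0.991). These genes were picked from 11105 for their likeness over 8 rats, and the values are a description without a test.

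The surroundings of these receptors were described with lists of related genes. These lists were also chosen with earlier results of these data known, so their shares and medians are a description without a test. Among 31 genes listed as other inhibitory receptors, 26 were found and 19 tested. Whether each of them carries an inhibitory motif was not examined. Of the tested genes, 11 rose after CNT-7 and the other 8 did not pass. The 11 included the related genes Clec4a1, Clec4a2 and Clec4a3. They also included Lilrb3, picked with its value known, which passed narrowly (edgeR, adjusted p = 0.096) at 1 to 52 counts per rat. The share of 57.9% stands beside 27.9% of all genes, and the median log2 fold change was 1.0 beside 0.0083. Fcrl2, an Fc receptor-like gene, had 166, 60.0, 40.6 and 56.0 CPM in CNT-7 rats 3, 5, 10 and 11, and 2.09, 14.9, 4.28 and 2.00 CPM in CNT-T rats 1, 2, 12 and 13. The groups did not overlap, and the log2 fold change was 3.77 (edgeR, adjusted p = 0.0055), or 3.15 without CNT-7 rat 3 and 4.84 without CNT-T rat 2. Clec4a3, of the DCIR group of lectin receptors, had 57.6 ± 13.4 CPM in the CNT-7 group and 10.4 ± 1.42 CPM in the CNT-T group (SD, n = 4 each, log2 fold change 2.47, edgeR, adjusted p = 7.2e-05). Cd72, an inhibitory receptor best known from B cells, was low, with 1.34 to 3.61 CPM in CNT-7 rats and 0.261 to 0.739 CPM in CNT-T rats (log2 fold change 2.44, edgeR, adjusted p = 0.0032).

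Havcr2, which encodes TIM-3, rose by a log2 fold change of 1.75 (edgeR, adjusted p = 0.044). The size of this change rested largely on CNT-7 rat 10, which had 53.6 CPM. The rest of its group had 11.5 to 13.4 CPM, still above the 3.42 to 9.91 CPM of the CNT-T rats. Without CNT-7 rat 10 the log2 fold change was 0.91 and the call was kept. Without CNT-T rat 12 the call was lost (edgeR, adjusted p = 0.109). Fcgr2b, the inhibitory Fcγ receptor, which was chosen after its values were seen, ranged from 2959 to 3402 CPM with CNT-7 and from 1197 to 1497 CPM with CNT-T, with a log2 fold change of 1.21 (edgeR, adjusted p = 0.00013). The group was not uniform. Pirb, Lilrb2, Lilrb3a, Clec12a, Cd200r1, Ceacam1, Clec4a and Vsig4 did not pass, and Cd200r1, the receptor for CD200, which was also picked with its value known, had a log2 fold change of -0.03 (95% confidence interval -0.28 to 0.22).

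**Figure D5:**
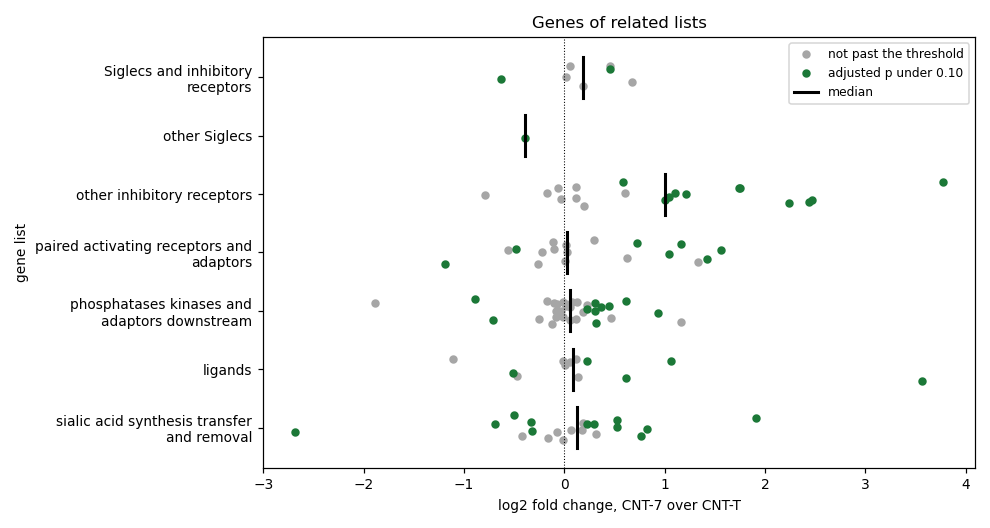
Log2 fold change (CNT-7 relative to CNT-T) of every tested gene of the 7 Siglecs and receptors and of 6 related lists, with green for an adjusted p under 0.10, grey for the others and a black bar for the median of each list. The median of the other inhibitory receptors was 1.0, whereas those of the activating receptors, the downstream enzymes, the ligands and the sialic acid genes lay between 0.02 and 0.13.

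Paired activating receptors and adaptors moved in both directions. All 18 of 29 genes found were tested, and 5 rose and 2 fell, a share of 38.9% beside 27.9% of all genes. Trem2, a lipid receptor that signals through DAP12, fell to 21.9 ± 4.94 CPM with CNT-7, compared with 49.8 ± 4.23 CPM with CNT-T (SD, n = 4 each, log2 fold change -1.19, edgeR, adjusted p = 0.0011). Clec5a (log2 fold change 1.56) and Lilra5 (1.42) rose, with adjusted p-values of 0.014 and 0.021 from edgeR. Cd200r1l, with a log2 fold change of 1.16, passed narrowly (edgeR, adjusted p = 0.075), and its call was lost without CNT-7 rats 3, 5 or 11 or CNT-T rats 1, 12 or 13. The common adaptor Tyrobp, which encodes DAP12, had 531 to 686 CPM after CNT-7 and 580 to 698 CPM after CNT-T. These ranges overlapped, and the log2 fold change was -0.11 (95% confidence interval -0.32 to 0.11; edgeR, adjusted p = 0.48). Pilrb was not analysed here.

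Of 34 phosphatases, kinases and adaptors downstream of the receptors, 33 were found and 32 tested, and 8 rose and 2 fell, or 31.2%, close to the 27.9% of all genes. Lyn, the Src family kinase that phosphorylates inhibitory motifs, had 588 ± 40.7 CPM in the CNT-7 group and 474 ± 21.8 CPM in the CNT-T group (SD, n = 4 each, log2 fold change 0.31, edgeR, adjusted p = 0.017). Fgr, a related kinase, rose by a log2 fold change of 0.61 (edgeR, adjusted p = 0.0064). Src was low, with at most 5.16 CPM in any rat. It had a log2 fold change of 0.93 (edgeR, adjusted p = 0.083), and of the fits without a rat only that without CNT-7 rat 11 kept its call. The phosphatase gene Ptpn22 (log2 fold change -0.89) and the adaptor gene Pag1 (-0.71) fell, with adjusted p-values of 0.0092 and 0.020 from edgeR. Ptpn11, which encodes SHP-2, and Inpp5d, which encodes the lipid phosphatase SHIP-1, had log2 fold changes of -0.08 (95% confidence interval -0.24 to 0.07) and -0.03 (-0.21 to 0.15), without passing.

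The last lists concerned ligands and sialic acid. Of 18 ligand genes, all found, 12 were tested, and 4 rose and 1 fell, which is 5 of 12 or 41.7% beside 27.9% of all genes. Besides Cd47 these included Selplg, which encodes PSGL-1 and rose by a log2 fold change of 0.61 (edgeR, adjusted p = 0.0067), Spn, which encodes the sialoglycoprotein CD43 (1.06, adjusted p = 0.036), and Hmgb1, which fell (-0.51, adjusted p = 0.021). Cd24, a ligand of Siglec-10, was at most 0.429 CPM after CNT-T and between 0.67 and 6.30 CPM after CNT-7 (log2 fold change 3.56, edgeR, adjusted p = 0.016), and without CNT-7 rat 3 the log2 fold change was 2.41.

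Of 33 genes for the synthesis, transfer and removal of sialic acid, 31 were found and 20 tested, and 7 rose and 5 fell, which is 60.0% beside 27.9% of all genes. St3gal4, a transferase that adds sialic acid in α2,3 linkage, had 249, 221, 351 and 192 CPM in CNT-7 rats 3, 5, 10 and 11 and 84.7, 63.1, 62.4 and 58.4 CPM in CNT-T rats 1, 2, 12 and 13. Every CNT-7 rat was far above the CNT-T rats (log2 fold change 1.91, edgeR, adjusted p = 0.00035). St3gal2, with the same linkage, rose by 0.82 on the log2 scale (edgeR, adjusted p = 0.028). St6gal1, the transferase for α2,6 linkage, on which Cd22 relies for its ligands, fell instead, with 62.5 ± 8.72 CPM in the CNT-7 group and 101 ± 3.24 CPM in the CNT-T group (SD, n = 4 each, log2 fold change -0.69, edgeR, adjusted p = 0.0014). It was named after its values were seen. Npl, which breaks down free sialic acid, rose by 0.76 on the log2 scale (edgeR, adjusted p = 0.0016). St8sia6 was low, with 0.0722 to 1.23 CPM in CNT-7 rats and 0.966 to 6.26 CPM in CNT-T rats. The groups overlapped, and the lowest count was 2. Its log2 fold change was -2.68 (edgeR, adjusted p = 0.031), which was -2.05 without CNT-T rat 2 and -3.73 without CNT-7 rat 11.

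The identity of the sorted cells was checked with marker lists. The 13 of 14 macrophage markers found summed to 17639 to 23993 CPM in CNT-7 rats and 26525 to 38120 CPM in CNT-T rats, and 2 of them were higher and 7 lower after CNT-7 by the same threshold. Most of this sum was Lyz2 alone, with 12192 to 19609 CPM in CNT-7 rats and 20521 to 30089 CPM in CNT-T rats. Cd14 (244 to 288 and 181 to 228 CPM) and Gata6 (145 to 176 and 117 to 141 CPM) went the other way. Neutrophil markers, all 11 found, summed to 33.9 to 63.0 CPM in CNT-7 rats and 26.3 to 68.4 CPM in CNT-T rats, with Mpo at 0 in every rat. Mast cell markers (7 of 8 found) and mesothelial markers (8 of 8) summed to at most 2.44 CPM and 1 CPM. Markers of T or NK cells (10 of 10) summed to 13.5 to 15.7 CPM in CNT-7 rats and 4.07 to 6.92 CPM in CNT-T rats, and those of dendritic cells (8 of 8) to 34 to 46.7 CPM and 19.9 to 28.5 CPM. Of the tested markers, 2 of 5 for T or NK cells and 4 of 5 for dendritic cells were higher after CNT-7. Cd8a, which had the highest level on the T or NK cell list, had 2.81 to 8.73 CPM in CNT-7 rats and 0.717 to 1.21 CPM in CNT-T rats. Klrd1, Cd3d and Cd3g overlapped, with Cd3d at most 0.938 CPM and Cd3g at most 1.27 CPM in any rat. Cd3e had 0.289 to 2.11 CPM in CNT-7 rats and 0.0358 to 0.231 CPM in CNT-T rats. Tcf4, the highest dendritic cell marker, had 20.5 to 32.2 and 12.6 to 14.4 CPM, whereas Zbtb46 overlapped. These single markers were picked with their values known. The sums for macrophages, T or NK cells and dendritic cells moved with the particle, but not every marker did. The part of these sums in the differences of Sirpa, Cd33 and the related lists was not tested.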

How the data were processed

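The RNA-seq count table covers macrophages sorted from 8 rats, 4 per particle, and 0 of its columns were left out. The authors quantified reads with Salmon against Ensembl rat cDNA sequences (Rnor_6.0) within the ARMOR workflow, imported them with tximeta and deposited estimated counts per gene as whole numbers without normalization. Estimated counts divide reads between similar transcripts, which makes values of near-identical genes of the Lilr, Cd300, Sirp and Siglec families uncertain. The gene models of the authors' assembly were not used here, and therefore no coordinates are given.

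edgeR 4.0.16 in R 4.3.3 was run with TMM normalization, filterByExpr (minimum count 10, minimum total 15), its quasi-likelihood test and Benjamini-Hochberg adjustment over 12124 genes. A standard error is |log2 fold change|/√F. For deviations, a prior count of 2 was added before taking log2 CPM. Levels of different genes were not compared, as they are not per length. Alternatives were DESeq2 1.42.0, upper-quartile normalization, other filters and thresholds, a term for low or high rat numbers, each rat left out, and a prior count of 0.5. On simulated counts with 97 genes changed 2-fold and 97 changed 4-fold among 12034, 80.4% and 96.9% were recovered, and 11.3% of the calls were false. Changes below 2-fold, which include those of all tested members, were not simulated, so recovery at that size is not known. Pearson's r of log2 CPM across genes, which are not independent replicates, was between 0.98 and 0.993 for rats of the same group and between 0.957 and 0.978 for rats of different groups. Levels and floors of 3 counts cover counting error only, since no molecular identifiers are described for these libraries.

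The genes and lists were chosen with earlier results of these data known. All members were described. From each list, up to 4 called genes with at least 1 CPM and the largest changes were named, with the partners Tyrobp, Cd47, Ptpn11, Inpp5d, Pilrb and Lyn, and the 3 genes most like each member. Where further genes are described with values, the text says so. One marker gene, and the summed level of its list, are not reported here.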

Additional observations from a re-analysis of the deposited data

Results flagged for a closer look

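Dixon's ratio, the distance of an extreme rat to its nearest neighbour over the whole range of its 4 rats, was above the 95% critical value of 0.829 in 3 of 68 groups examined, where 3.40 are expected by chance. For Fcrl2 the ratio was 0.845, since CNT-7 rat 3 had 166 CPM and the rest of its group 40.6 to 60.0 CPM. For Havcr2 it was 0.954, with 53.6 CPM in CNT-7 rat 10 and 11.5 to 13.4 CPM in the rest. For Inpp5d it was 0.869, CNT-T rat 1 having 165 CPM and its group otherwise 139 to 142 CPM. None of the 8 Siglecs, receptors and phosphatase genes described first stood apart by this measure.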

How the results depend on the processing

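Sirpa and Cd33 passed in every fit at an adjusted p under 0.10 or 0.05, and neither reached a 2-fold change. With that requirement, 0 of the 7 receptor genes, 19 genes of the related lists (46 without it) and 1006 of all genes passed with edgeR (552 higher and 454 lower), whereas 4 of the 7 had an unadjusted p under 0.05, beside 33.2% of all genes, and DESeq2 called 4 of 8. With each rat left out, between 2 and 3 of the 7 genes, between 35 and 48 genes of the lists and between 2578 and 3515 of all genes passed. With a term for low (1 to 5) or high (10 to 13) rat numbers, Lilrb4 passed (log2 fold change 0.75, adjusted p = 0.0699 from edgeR) and Siglec1 turned to -0.021. Without a rat, Siglec1 ranged from -0.72 to 0.32, Cd300a from -0.03 to 0.13 and Inpp5d from -0.06 to 0.028, so that their direction was not fixed. The cause was not tested. No paired analysis was possible because the groups share no rat number. Counts were 808 or more for Cd33 and 5438 or more for Sirpa in every rat, whereas Siglec10, at no more than 12, was limited by depth.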

Other observations

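Among genes of the lists that were chosen after their values were seen, Vsir, which encodes the inhibitory receptor VISTA, had 840, 991, 1020 and 778 CPM in CNT-7 rats 3, 5, 10 and 11 and 664, 622, 586 and 563 CPM in CNT-T rats 1, 2, 12 and 13 (log2 fold change 0.58, edgeR, adjusted p = 0.0047). Neu1, the lysosomal sialidase, had 36.4 to 44.2 CPM with CNT-7 and 27.1 to 31.0 CPM with CNT-T (log2 fold change 0.52, edgeR, adjusted p = 0.0026). Neither gene overlapped between the groups, as was found for 24.9% of all genes tested.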
